A study of Mus musculus with 16 samples.

Results

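The D cyclins (Ccnd1, Ccnd2, Ccnd3) and the inhibitors of cyclin-dependent kinases of the CIP/KIP family (Cdkn1a, Cdkn1b, Cdkn1c) and the INK4 family (Cdkn2a, Cdkn2b, Cdkn2c) were compared between brown and subcutaneous white fat of the mouse. These 9 genes were chosen by name out of 18194 genes measured, and all 21 of their probe sets that name 1 gene, out of 45101 probe sets on the array, were used with no filter on signal. BAT stands for interscapular brown adipose tissue and sWAT for subcutaneous white adipose tissue, both of untreated LACA mice labelled male, weighing 25 ± 3 g and kept on a standard chow of 70% carbohydrate and 10% fat. Their age is not given in the sources used here. The methods describe 4 mice with both tissues removed from each, and each tissue has 4 replicates measured on 2 Affymetrix arrays, 1 labelled biological and 1 technical. Nothing else in the labels separates the replicates. With 4 values per tissue, the main p-values measure how the BAT minus sWAT difference varies over the 4 replicate numbers. Whole tissue was used, and in whole tissue fewer cells of a type and less RNA per cell cannot be told apart.

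A D cyclin is made when a cell receives growth signals. It binds Cdk4 or Cdk6, and the pair phosphorylates the retinoblastoma protein Rb, which then lets go of the E2F factors that switch on genes for DNA replication. INK4 proteins bind Cdk4 and Cdk6 and keep D cyclins off them, whereas CIP/KIP proteins bind whole cyclin-kinase complexes, of Cdk2 above all. Several of these genes have been studied in fat for their part in the exit of fat cell precursors from the cell cycle and in the growth of fat tissue.

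The array values were deposited as centred log2 values, each probe set being set to a median of 0 across the 16 arrays. A value of 1 therefore means a doubling over that median, and the values give differences between samples of a probe set but no level and no ranking of genes. The 2 arrays of a replicate were averaged, and the value of a gene is the mean over its probe sets. A gene or probe set is said to have changed where limma's adjusted p was under 0.05.

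Before the results, 2 arrays stood apart. On the second array of BAT replicate 1 and the first array of sWAT replicate 3, the 5' control probe sets of Gapdh and Actb minus the 3' ones gave -3.56 and -4.79 log2 units, against -1.23 to 0.46 on the other arrays. The correlation between the 2 arrays of these replicates was 0.51 in BAT and 0.34 in sWAT, against 0.85 to 0.92 in the other replicates. Xist, the RNA made from the inactive X chromosome of females, was at 5.74 to 6.36 in BAT replicates 1 to 3 and at -0.26 in BAT replicate 4, against -0.27 to -0.11 in the sWAT replicates. The mean of the Y-linked genes was -2.33 to -1.98 in BAT replicates 1 to 3 and 0.18 in BAT replicate 4, against 0.20 to 0.39 in sWAT. BAT replicates 1 to 3 therefore go against the label male, and sex and tissue cannot be told apart in them. Same-numbered BAT and sWAT replicates 1 to 3 thus differed in this sex pattern, which tissues of 1 mouse would share, and a pair of replicates here means only replicates of equal number. Results are also given without the 2 arrays of low 5' signal and for replicate 4 alone, where both tissues carried the male pattern.

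Of the 9 genes, 5 changed between the tissues. Cdkn1a, Cdkn1c and Cdkn2c were higher in BAT and Ccnd2 and Ccnd3 were lower, whereas Ccnd1, Cdkn1b, Cdkn2a and Cdkn2b did not pass the test. The 3 of 9 genes that were higher stand beside 21.0% of all genes tested, and the 2 of 9 that were lower beside 17.5%. Cdkn1a was higher and Ccnd2 and Ccnd3 lower by more than 2-fold, beside 1298 higher and 1455 lower of all 18194 genes. For Ccnd3 the 2-fold difference rests on the mean over its probe sets. With their median it was at -0.95, below 2-fold (adjusted p = 0.014, limma). Among the 21 probe sets, 4 were higher, against 15.1% of all probe sets, and 10 were lower, against 17.3%. At 2-fold or more the counts were 2 higher and 9 lower, against 6.10% and 9.56% of all probe sets. Of those 9 lower probe sets 7 belong to Ccnd2, so that they are not separate genes. The median difference, BAT minus sWAT, was -0.34 over the 9 genes and 0.15 over all genes. In Cdkn1a all BAT replicates lay above all sWAT replicates, as in 28.0% of all genes, and in Ccnd2, Ccnd3 and Cdkn2b all BAT replicates lay below, as in 17.4% of all genes. Without the 2 arrays of low 5' signal 7 of the 9 genes passed the test, against 49.2% of all genes and 38.4% with all arrays, and 15 of the 21 probe sets, against 42.4% of all probe sets and 32.4% with all arrays. A paired test like that in the methods estimates the spread of each gene from its 4 pairs alone. It called 0 of the 9 genes after adjustment, against 19.6% of all genes. At an unadjusted p under 0.05 it called 3 higher and 2 lower genes. The share of all genes at that limit was not counted. With arrays scaled to Gapdh and Actb, limma called 1 of the 9 genes, Ccnd2, against 5.35% of all genes. Actb itself was lower in BAT (-1.28 ± 0.32) and Gapdh was at 1.27 ± 0.47 without a call. Under that scaling the differences hardly moved, with -1.38 for Ccnd3 and 1.48 for Cdkn1a, and the SE of every gene was 0.59.

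**Figure D1:**
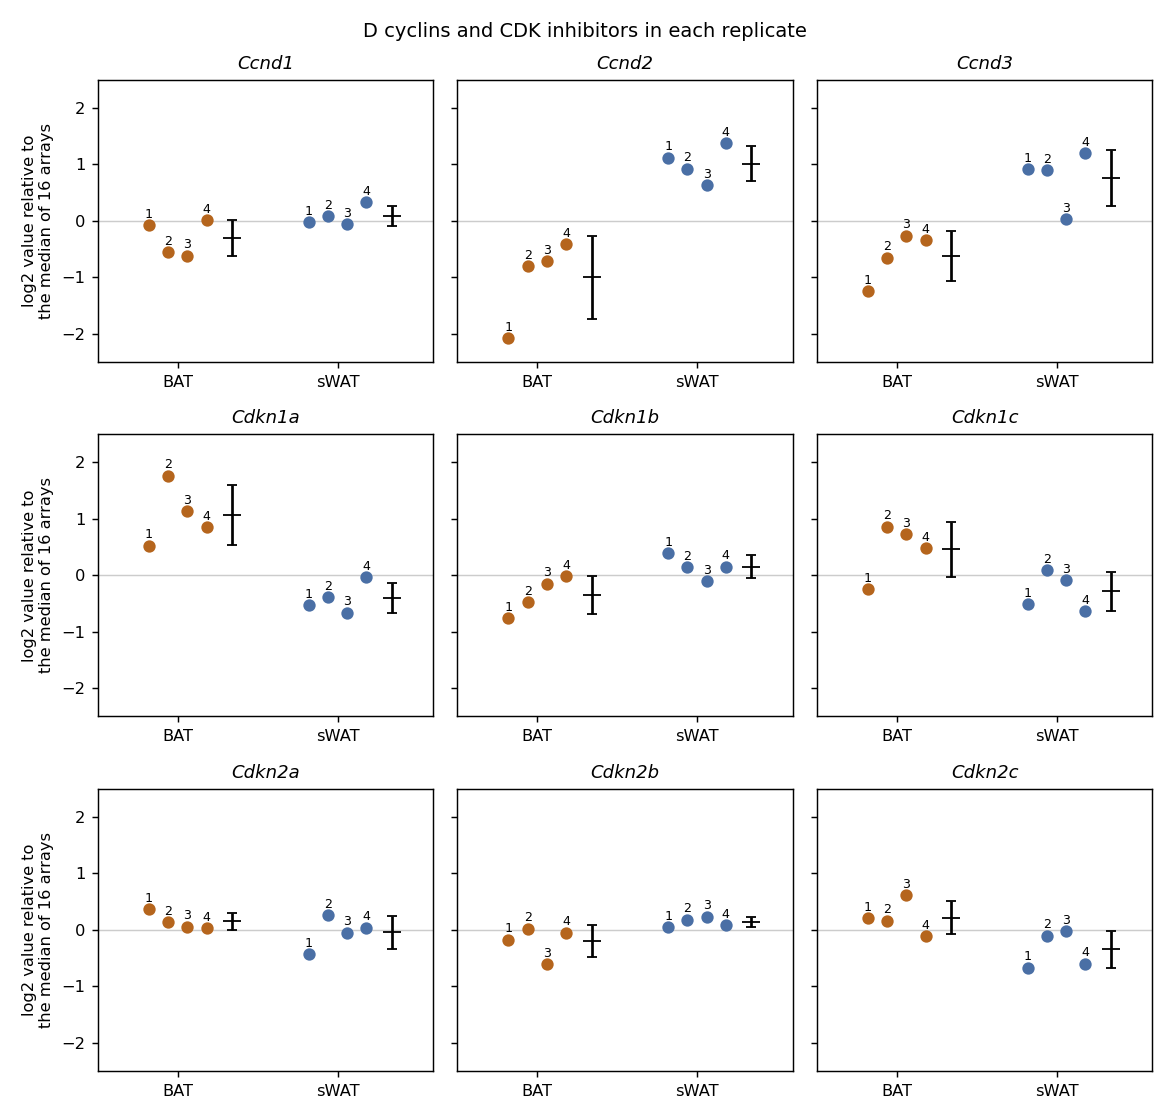
Value of each of the 9 genes in the 4 BAT (left) and 4 sWAT (right) replicates, on a log2 scale on which the median of all arrays is 0. Points carry the replicate number, and bars show the mean ± SD (n = 4). The groups do not overlap for Ccnd2, Ccnd3, Cdkn1a and Cdkn2b.

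Ccnd2, the D cyclin that is prominent in lymphocytes and in the beta cells of the pancreas, had the widest difference of the 9 genes. Its gene values were -2.08, -0.80, -0.71 and -0.41 in BAT replicates 1 to 4, against 1.12, 0.92, 0.63 and 1.37 in sWAT replicates 1 to 4. BAT replicate 1 was the lowest by more than 1 log2 unit, and no BAT replicate reached any sWAT replicate. The difference was -2.01 ± 0.29 (SE, n = 4 per tissue), which is 4.03-fold lower in BAT, with an adjusted p of 0.0019 (limma). Without the 2 arrays of low 5' signal it was -2.05 ± 0.19, and in replicate 4 alone it was -1.78.

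All 7 probe sets of Ccnd2 were lower in BAT, with differences between -2.31 and -1.30. The probe set 1455956_x_at read -1.70, -0.98, -0.99 and -0.68 in BAT, against 0.90, 0.75, 1.05 and 1.19 in sWAT. It had the lowest adjusted p of the 21 probe sets, 0.00028, at a difference of -2.06 ± 0.18. The spread was widest for 1430127_a_at, with -2.999, -0.80, -0.48 and 0.00 in BAT, against 1.37, 0.92, -0.25 and 1.74 in sWAT. Here sWAT replicate 3 fell among the BAT replicates, the one overlap among the 7 probe sets. Its 2 arrays read -1.86 and 1.36, and those of BAT replicate 1 read -1.62 and -4.38, the array of low 5' signal being the lower in both. The difference of 1430127_a_at was -2.01 ± 0.57 with all arrays and -2.07 ± 0.23 without these 2. Leaving out replicate 1, 2 or 4 ended its call (adjusted p = 0.051 to 0.062), at -1.23 without replicate 1 and -2.11 without either of the other two, and so did the first arrays alone (-1.11, adjusted p = 0.23).

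Ccnd3, a D cyclin with known roles in thymocytes and B cells, was also lower in BAT, but its 3 probe sets disagreed. The gene values were -1.25, -0.65, -0.26 and -0.35 in BAT, against 0.91, 0.89, 0.03 and 1.20 in sWAT. The groups did not overlap, with sWAT replicate 3 nearest to the BAT values. The difference was -1.39 ± 0.28 (2.61-fold lower, adjusted p = 0.0079 by limma). It was -1.44 ± 0.11 without the 2 arrays of low 5' signal and -1.54 in replicate 4. On the first arrays alone, which include the low one of sWAT, Ccnd3 did not pass (-0.96 ± 0.35, adjusted p = 0.075).

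The probe set 1438805_at carried most of this difference. It read -2.13, -1.58, -0.53 and -1.22 in BAT, against 2.38, 2.42, 1.09 and 2.60 in sWAT. Every BAT replicate was below 0 and every sWAT replicate above 1, and the difference of -3.48 ± 0.43 (11.2-fold lower, adjusted p = 0.0012) was the largest of the 21 probe sets. The second, 1415907_at, read -1.87, -0.36, -0.12 and 0.03 in BAT, against 0.46, 0.25, -1.13 and 0.91 in sWAT. Its low points were the 2 replicates with an array of low 5' signal, where single arrays reached -3.55 in BAT and -2.86 in sWAT. With all arrays its difference was -0.70 ± 0.46 (adjusted p = 0.27), and without those 2 it was -0.71 ± 0.11 (adjusted p = 0.0026). It was -0.16 without replicate 1 and -1.27 without replicate 3 (adjusted p = 0.80 and 0.033), and 0.30 on the first arrays alone. The third, 1444323_at, stayed between -0.14 and 0.25 in BAT, against -0.11 and 0.15 in sWAT, and its difference was 0.03 ± 0.15, with a 95% interval of -0.33 to 0.39. Transcript positions of the probe sets were not analysed here.

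Promoter sequences of RefSeq were matched by symbol for 6 of the 9 genes, in 10 windows of the build GRCm38.p6. Ccnd1, Ccnd2 and Cdkn1c had no entry. In the 250 bases before each start, both strands were searched for the GC box GGGCGG (in 32.7% of 32851 promoter windows), the CCAAT box CCAAT (33.8%), the TATA box TATAAA (12.4%), the E-box CACGTG (6.02%), the cyclic AMP response element TGACGTCA (1.55%), the E2F motif as TTTCCCGC, TTTCGCGC, TTTGCCGC or TTTGGCGC (1.86%) and the half-site of p53 (7.13%). The search letters were chosen with the sequences of these genes at hand. The 120 bases before both starts of Ccnd3 are shown because this gene changed by more than 2-fold and its probe sets disagreed, with the motif matches in capitals.
Ccnd3, first start (chr17:47504931-47505050, plus strand): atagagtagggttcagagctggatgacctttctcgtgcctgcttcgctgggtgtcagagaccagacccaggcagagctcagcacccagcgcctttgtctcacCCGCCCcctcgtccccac
Ccnd3, second start (chr17:47593347-47593466, plus strand): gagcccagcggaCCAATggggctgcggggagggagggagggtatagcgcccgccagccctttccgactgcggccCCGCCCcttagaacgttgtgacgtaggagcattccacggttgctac
The first window holds a GC box on the other strand (CCGCCC), and a second one lies further upstream, beginning 152 bases before the start. The second holds a CCAAT box and a GC box. Neither holds a match to the E2F motif, the E-box or the TATA box as searched, and the array values do not say which start was used.

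**Figure D2:**
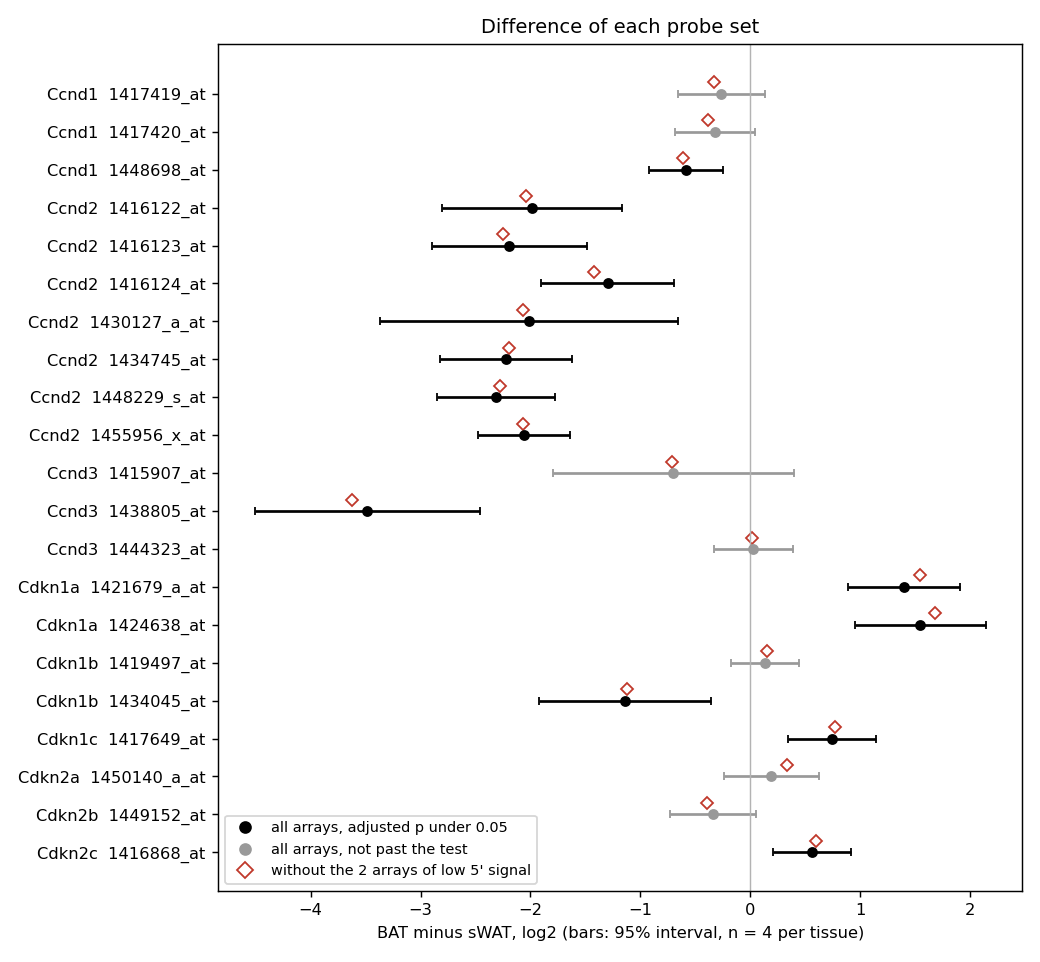
Difference BAT minus sWAT of the 21 probe sets on the log2 scale, with the 95% interval (n = 4 per tissue). Black points passed the test, grey points did not, and open diamonds show the difference without the 2 arrays of low 5' signal. All 7 Ccnd2 probe sets lie left of -1, and the 3 of Ccnd3 spread from -3.48 to 0.03.

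Ccnd1, the D cyclin induced by growth factors in many cell types, was lower in BAT in all 4 pairs of equal number but did not pass the test. The gene values were -0.08, -0.55, -0.62 and 0.01 in BAT, against -0.02, 0.09, -0.06 and 0.33 in sWAT. BAT replicate 4 lay within the sWAT values and replicate 1 just below them. The difference was -0.39 ± 0.14 (95% interval -0.72 to -0.06, adjusted p = 0.063), it was -0.44 ± 0.16 without the 2 arrays of low 5' signal, and in replicate 4 it was -0.32. Of the 3 probe sets, 1448698_at was lower in BAT at -0.59 ± 0.14 (adjusted p = 0.019), and the other 2 were at -0.26 and -0.32 with no call. Without replicate 2, 1448698_at did not pass either (-0.50, adjusted p = 0.12).

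The difference in Ccnd2 exceeded that in Ccnd1 by 1.62 ± 0.45 log2 units and that in Ccnd3 by 0.63 (Ccnd2 minus Ccnd3, -0.63 ± 0.21). An exact permutation test over the 8 replicates, two-sided, gave 0.029 for both, the smallest p that 4 against 4 replicates allow. After adjustment over the 9 pairs of genes compared within the 3 families, it became 0.051, and no pair was under 0.05. For Ccnd1 and Ccnd3, whose differences lay 0.996 ± 0.375 apart, p was 0.057 (adjusted 0.073). Both comparisons with Ccnd3 used the mean over its 3 probe sets, whose differences ran from -3.48 to 0.03. Those of the 7 Ccnd2 probe sets ran from -2.31 to -1.30. The widest Ccnd3 difference thus exceeded every one of Ccnd2. The gap of 0.63 holds for the gene means and rests on averaging in the other Ccnd3 probe sets.

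Cdkn1a, which encodes p21, the inhibitor best known as a target of p53, was higher in BAT. Its gene values were 0.53, 1.77, 1.13 and 0.85 in BAT, against -0.53, -0.38, -0.66 and -0.03 in sWAT. Every BAT value was positive and every sWAT value negative. The difference was 1.47 ± 0.22 (2.77-fold higher, adjusted p = 0.0024 by limma). Without the 2 arrays of low 5' signal it was 1.61 ± 0.21, and in replicate 4 alone it was smaller, at 0.89.

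Both probe sets of Cdkn1a were higher in BAT, by 1.40 ± 0.22 for 1421679_a_at and 1.55 ± 0.25 for 1424638_at. BAT replicate 1 was the lowest BAT value of 1421679_a_at, and its arrays read 1.26 and -0.75, the second being the array of low 5' signal. On 1424638_at the same 2 arrays read 1.56 and 0.03. The low array thus lay within the sWAT range of 1421679_a_at and above that of 1424638_at.

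RefSeq gives 2 starts for Cdkn1a in the promoter table, and the 120 bases before each are shown because Cdkn1a had the largest increase of the 9 genes. Motif matches are in capitals.
Cdkn1a, first start (chr17:29090859-29090978, plus strand): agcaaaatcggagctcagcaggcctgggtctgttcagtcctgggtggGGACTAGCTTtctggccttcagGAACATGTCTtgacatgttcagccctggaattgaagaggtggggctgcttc
Cdkn1a, second start (chr17:29093649-29093768, plus strand): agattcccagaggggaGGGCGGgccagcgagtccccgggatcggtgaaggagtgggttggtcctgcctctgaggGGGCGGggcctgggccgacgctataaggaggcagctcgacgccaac
The first window holds 2 matches to the half-site of p53 and no GC box. The second holds 2 GC boxes, 104 and 46 bases before the start, and no match to the half-site. These are matches of letters, and binding was not measured.

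**Figure D3:**
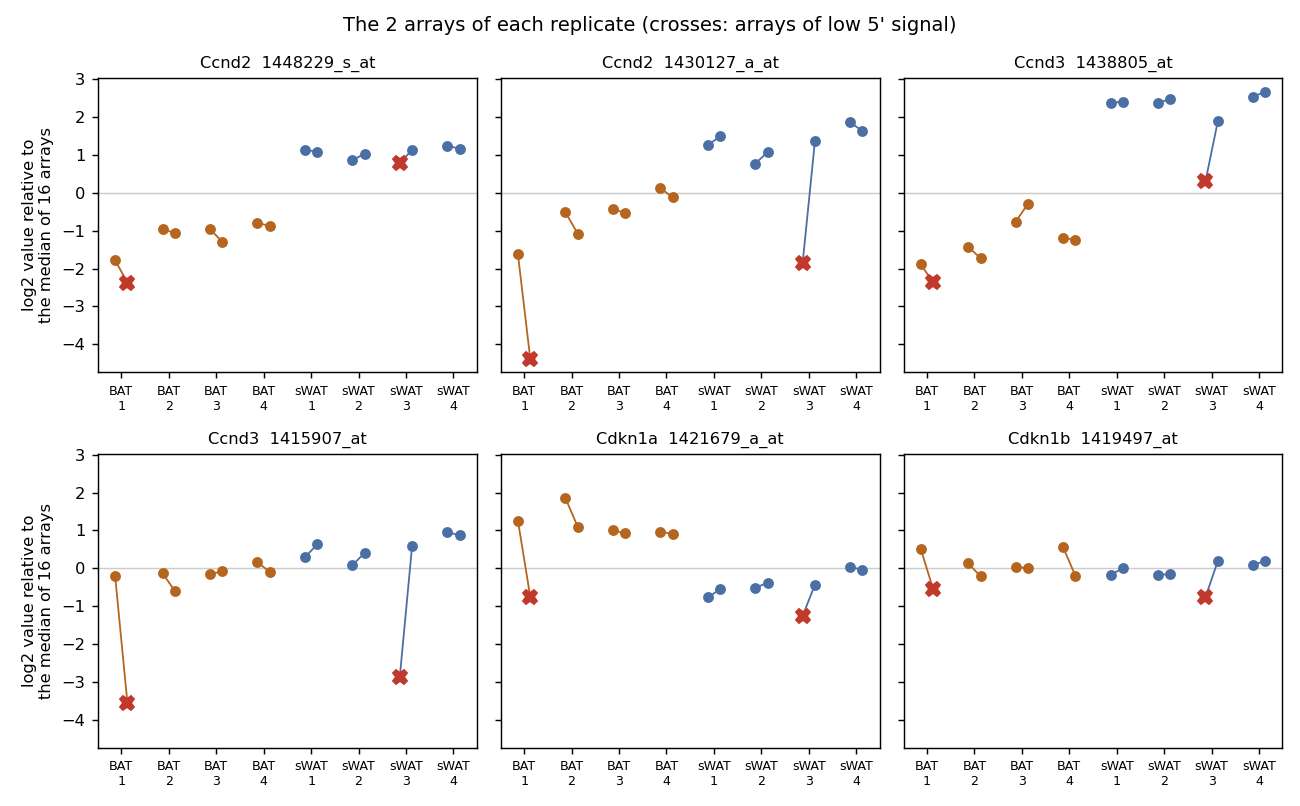
Values of the 2 arrays of each replicate, joined by a line, for 6 probe sets of Ccnd2, Ccnd3, Cdkn1a and Cdkn1b, on a log2 scale on which the median of all arrays is 0, with BAT on the left and sWAT on the right. Crosses mark the 2 arrays of low 5' signal, which lie furthest from their partners on 1430127_a_at and 1415907_at.

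The plot of single arrays shows how unevenly the 2 arrays of low 5' signal touched these genes. Over the 21 probe sets the gap between the arrays of a replicate had a median of 0.49 and a maximum of 3.46 in the 2 replicates with such an array. In the other 6 replicates the median was 0.14 and the maximum 0.76. On the Ccnd2 probe set 1455956_x_at the 2 arrays lay close to their partners, with -1.69 and -1.71 in BAT replicate 1, against 0.98 and 1.11 in sWAT replicate 3.

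Cdkn1b, which encodes p27, the inhibitor that accumulates in resting cells, did not pass the test as a gene, and its 2 probe sets disagreed. The gene values were -0.75, -0.48, -0.15 and -0.02 in BAT, against 0.39, 0.15, -0.10 and 0.16 in sWAT. BAT replicate 4 lay above the lowest sWAT replicate. The difference was -0.50 ± 0.20 (95% interval -0.97 to -0.04, adjusted p = 0.083), and it was -0.49 ± 0.14 without the 2 arrays of low 5' signal, which passed the test (adjusted p = 0.024). In replicate 4 it was -0.17.

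The probe set 1434045_at read -1.50, -0.92, -0.32 and -0.22 in BAT, against 0.87, 0.46, 0.09 and 0.17 in sWAT. The groups did not overlap, and it was lower in BAT at -1.14 ± 0.33 (adjusted p = 0.037). The pairs of replicates 1 and 2 were -2.37 and -1.38 apart, and those of 3 and 4 were -0.41 and -0.39 apart. Leaving out replicate 1 or 2 ended the call (-0.73 and -1.05, adjusted p = 0.088 and 0.11). The other, 1419497_at, read between -0.04 and 0.18 in BAT, against -0.29 and 0.14 in sWAT, with a difference of 0.13 ± 0.13 (adjusted p = 0.45). On the first arrays alone that probe set was 0.56 higher in BAT (adjusted p = 0.040), and on the second arrays alone its difference was -0.29.

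Cdkn1c, which encodes p57 and is imprinted, the copy inherited from the mother being the active one, was higher in BAT. Its single probe set read -0.25, 0.86, 0.73 and 0.48 in BAT, against -0.51, 0.09, -0.09 and -0.64 in sWAT. BAT replicate 1 lay within the sWAT range and the other 3 above it. The difference was 0.74 ± 0.16 (1.68-fold higher, adjusted p = 0.010 by limma), 0.77 ± 0.14 without the 2 arrays of low 5' signal and 1.12 in replicate 4. BAT was higher in all 4 pairs of equal number, which need not be tissues of 1 mouse. Without the replicate block the SE of the gene was 0.25 (adjusted p = 0.038, limma). Fitted among probe sets instead of genes, the same values passed with all replicates (adjusted p = 0.015, limma). They also passed without replicate 1 or 3 (0.011 and 0.041), but not without replicate 2 or 4 (0.062 and 0.059). With arrays scaled to the 3' probe sets of Gapdh and Actb, Cdkn1c was at 0.77 and did not pass (adjusted p = 0.064).

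Within the CIP/KIP family, the difference in Cdkn1a lay 1.97 ± 0.33 above that in Cdkn1b, and the difference in Cdkn1b lay below that in Cdkn1c (-1.25 ± 0.31). Both had the smallest exact permutation p, 0.029, adjusted to 0.051. Cdkn1a and Cdkn1c lay 0.73 ± 0.30 apart (p = 0.086, adjusted 0.096, exact permutation test). At the level of probe sets, 3 of 5 in this family were higher, 2 of them of Cdkn1a, against 15.1% of all probe sets. The 1 lower, against 17.3%, was the Cdkn1b probe set 1434045_at.

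The INK4 genes had 1 probe set each and smaller differences. Cdkn2c, which encodes p18, an INK4 protein that restrains lymphocyte division in mice, read 0.21, 0.16, 0.61 and -0.11 in BAT, against -0.67, -0.11, -0.02 and -0.60 in sWAT. BAT replicate 4 was the one BAT value within the sWAT range. Cdkn2c was higher in BAT by 0.56 ± 0.14 (1.48-fold, adjusted p = 0.017 by limma), and by 0.60 ± 0.13 without the 2 arrays of low 5' signal. In replicate 4 it was 0.48 higher. Without replicate 1 it was at 0.46 ± 0.13 and did not pass (adjusted p = 0.056). Fitted among probe sets instead of genes, the same values passed with all replicates (adjusted p = 0.027), but not with any 1 replicate left out (0.053 to 0.080) nor on the first arrays alone (0.055).

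Cdkn2b, which encodes p15, an inhibitor induced by TGF-beta, read -0.18, 0.02, -0.61 and -0.05 in BAT, against 0.05, 0.18, 0.23 and 0.08 in sWAT. The groups did not overlap, but BAT replicate 3 alone lay more than 0.3 below the lowest sWAT value. The difference of -0.34 ± 0.16 did not pass the test (95% interval -0.71 to 0.03, adjusted p = 0.12), and without the 2 arrays of low 5' signal it was -0.39 ± 0.13 (adjusted p = 0.045). In replicate 4 it was -0.13. In BAT replicates 1 and 2 the first arrays read -0.63 and -0.20, and the second read 0.28 and 0.24. On the first arrays alone the difference was -0.65 (adjusted p = 0.031), and on the second arrays alone -0.03.

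Cdkn2a, the locus of p16 and of the p53 activator Arf, whose transcripts rise with cell senescence, read 0.37, 0.14, 0.05 and 0.03 in BAT, against -0.43, 0.26, -0.05 and 0.04 in sWAT. The groups overlapped, and the pair of replicate 1 was 0.80 apart, with the other 3 between -0.13 and 0.10 and that of replicate 4 at -0.0063. The difference was 0.19 ± 0.17 (95% interval -0.22 to 0.61, adjusted p = 0.39), and a rise of up to 0.61 log2 units lies within the interval. The probe set is of the kind that matches several transcripts of 1 gene, and p16 and Arf were not separated.

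Cdkn2a and Cdkn2b lie next to each other on chromosome 4, and their differences lay 0.53 ± 0.19 apart (exact permutation p = 0.057, adjusted 0.073). Those of Cdkn2b and Cdkn2c were -0.91 ± 0.31 apart (p = 0.029, adjusted 0.051, exact permutation test), and those of Cdkn2a and Cdkn2c -0.37 ± 0.22 (p = 0.14). The promoter windows of the 3 genes differed. The window before the first start of Cdkn2c held 3 GC boxes, and that of Cdkn2b held 1 cyclic AMP response element. The window before the first start of Cdkn2a held 2 GC boxes and 1 E2F motif. The second windows of Cdkn2c and Cdkn2a held no match. A link between these motifs and the differences was not tested.

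The partners and targets of these proteins did not all move with them. Cdk4 and Cdk6, the kinases that D cyclins activate, had differences of -0.45 ± 0.43 and -0.30 ± 0.14 and did not pass the test. Rb1, their substrate, was higher in BAT by 0.51 ± 0.16 (adjusted p = 0.040), whereas E2f1 was at -0.06 ± 0.12. In the list of Rb, E2F and DP genes 4 of 13 were higher and 4 lower, the median being -0.06. Rbl2, a relative of Rb, was at -1.10 ± 0.42 without passing, and E2f2, an activating E2F factor, was lower at -1.44 ± 0.27.

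Genes of later cell cycle phases were lower in BAT. Of the list of CDKs and other cyclins 5 of 13 were lower and 0 higher by limma, with 6 lower and 1 higher at an unadjusted p under 0.05 (median -0.43). The mitotic cyclins Ccnb2 (-3.48 ± 0.26) and Ccna2 (-3.11 ± 0.21) led it, and Ccna1, the germ line cyclin A, was at -0.04. Of the list of proliferation genes, which shares Ccnb2 and Cdk1 with it, 23 of 24 were lower, with a median of -2.32. Mki67, the Ki-67 antigen of dividing cells, was at -3.81 to -1.44 in BAT, against 1.47 to 2.35 in sWAT, a difference of -5.02 ± 0.34. Birc5, which encodes survivin, was at -4.23 ± 0.34, and Tyms, thymidylate synthase, did not pass at -0.09 ± 0.12.

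Among regulators of the kinases, 2 of 9 were lower and 0 higher by limma, also at an unadjusted p under 0.05. These were Cdc25b, a phosphatase that activates mitotic kinase (-2.54 ± 0.28), and Cdc25c (-0.50 ± 0.12), and Cdk7, of the kinase that activates CDKs, was at 0.01. Of 5 other genes listed beside the CDK inhibitors, Cables1 was higher (1.54 ± 0.21), Cdkn3 was lower (-1.71 ± 0.16) and Cdk2ap2 was at -0.18 without a call. The fourth INK4 gene, Cdkn2d, did not pass at -0.95 ± 0.49, and its BAT values of -2.06 to 0.00 overlapped sWAT values of -0.94 to 0.59. On the first arrays alone Cdkn2d was at 0.016 and Cdk4 at 0.18, and on the second alone at -1.92 and -1.09.

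**Figure D4:**
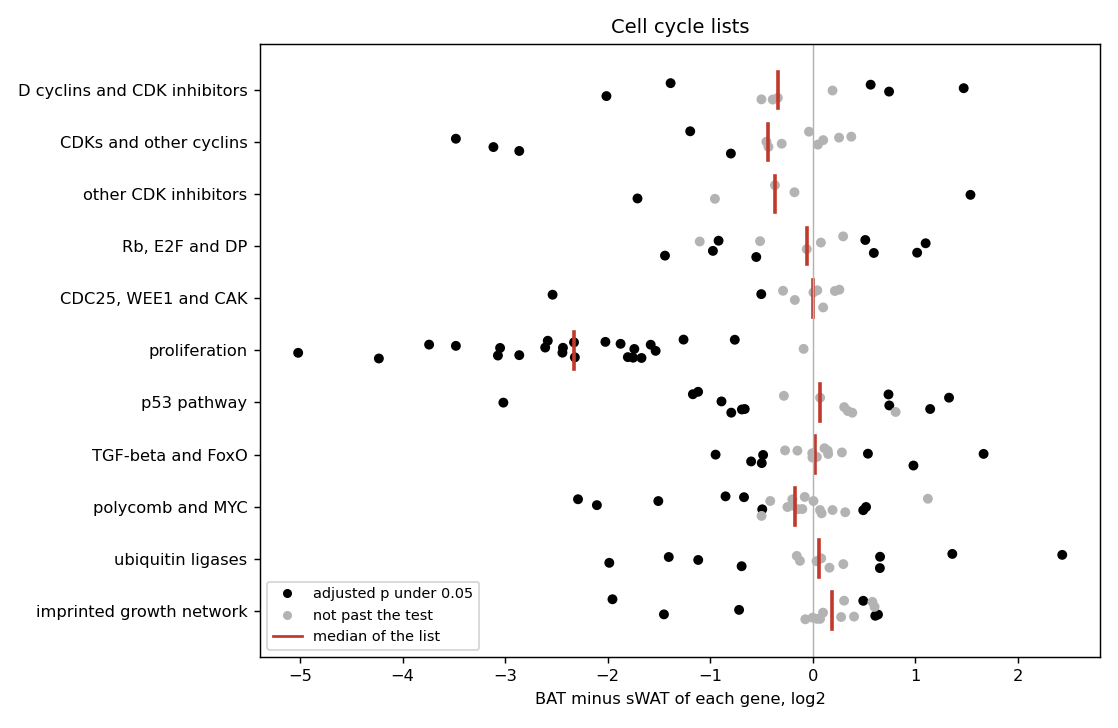
Difference BAT minus sWAT of each gene, on the log2 scale, for the 9 D cyclins and CDK inhibitors and 10 lists of related genes. Black points passed the test, grey points did not, and red lines mark list medians. The proliferation list lies left of 0 with a median of -2.32, and the 9 genes fall on both sides with a median of -0.34.

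Lists of regulators went both ways. Of 17 genes of the p53 pathway, 4 were higher and 7 lower. Phlda3, a p53 target that restrains Akt, was higher at 1.33 ± 0.32 as Cdkn1a was, Pmaip1, which encodes the death-promoting protein Noxa, was lower at -3.02 ± 0.20, and Aen was at 0.07. In the list of TGF-beta and FoxO regulators 3 of 16 were higher and 4 lower, with Cebpb (1.67 ± 0.28) and Cebpa (0.98 ± 0.31), C/EBP factors of fat cell differentiation, at the top and Tgfb2 at -0.003. Of 22 polycomb and MYC genes, 2 were higher and 6 lower. Ets1 (-2.29 ± 0.19) and Myc (-2.11 ± 0.22), an activator of Ccnd2 in other cells, were lower, and Mycn was at 0.01.

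Ubiquitin ligases and deubiquitinases of the cyclins and of p27 had 4 of 14 higher and 4 lower. Usp2, a deubiquitinase of cyclin D1, was higher by 2.43 ± 0.27, Cks1b, which helps the ligase to bind p27, was lower at -1.98 ± 0.14, and Fbxo4 was at 0.04. Of 16 imprinted growth genes, the group to which Cdkn1c belongs, 3 were higher and 3 lower (median 0.19). Nnat (-1.95 ± 0.60, adjusted p = 0.039) and Mest (-1.45 ± 0.47, adjusted p = 0.046) were lower, but in replicate 4 their differences were 0.71 and -0.40, and without the replicate block neither passed (adjusted p = 0.062 and 0.078). Plagl1, an activator of Cdkn1c in mice, was at -0.001 ± 0.14.

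Markers of other cells also differed between the tissues. All 6 B cell markers and all 7 T cell markers were lower in BAT. The mean over the B cell markers lay between -1.89 and -1.16 in BAT, against 1.51 to 2.30 in sWAT, and that over the T cell markers between -1.98 and -1.36 in BAT, against 1.41 to 2.06 in sWAT. Ms4a1, the B cell antigen CD20, was at -6.54 ± 0.25 and Il7r, the receptor of interleukin 7 on T cells, at -4.76 ± 0.24. The 6 markers of proliferating cells are all in the proliferation list above as well. Their mean was -2.40 to -0.82 in BAT, against 0.92 to 1.82 in sWAT. These lists were lower in BAT as Ccnd2 and Ccnd3 were, and their part in those differences was not tested.

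Skeletal muscle and brown fat markers were higher in BAT, as Cdkn1a, Cdkn1c and Cdkn2c were. All 7 muscle markers were higher, with means of 2.35 to 4.14 in BAT, against -2.29 to -1.72 in sWAT, and Acta1, the actin of skeletal muscle, was higher by 6.21 ± 0.40. All 7 brown adipocyte markers were higher as well, with Ucp1, the uncoupling protein of brown fat, at 7.58 ± 0.49. Their mean was 3.07, 3.09, 2.94 and 1.27 in BAT replicates 1 to 4, against -1.85 to -1.07 in sWAT. BAT replicate 4 was thus lowest in brown fat markers and highest in muscle markers. The part of muscle in the inhibitors' differences was not tested. Since values are centred, it cannot be said which markers were absent from a tissue.

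**Figure D5:**
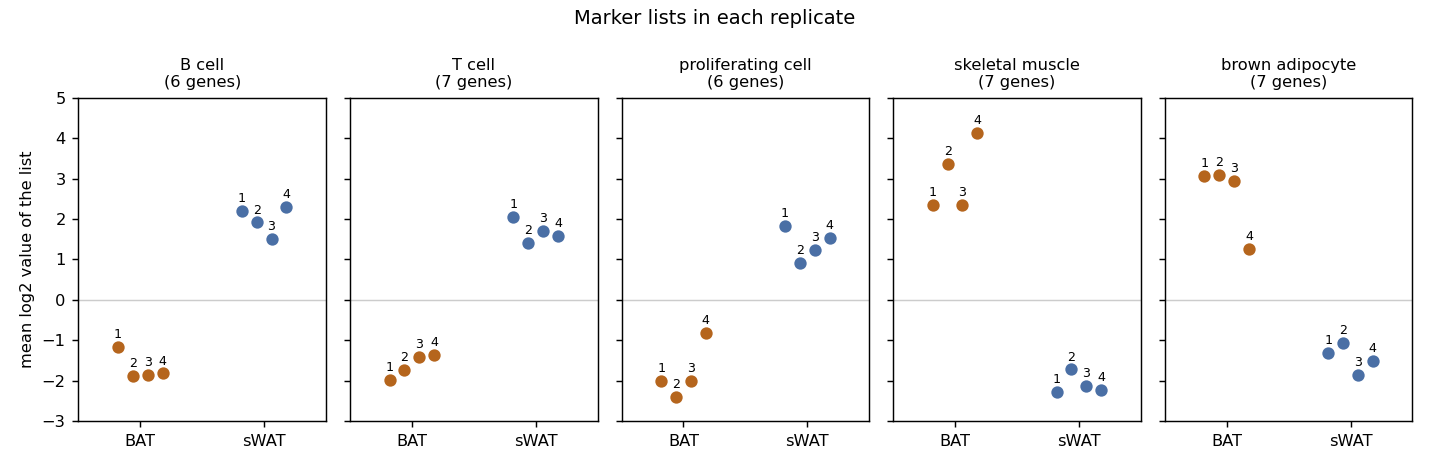
Mean log2 value of 5 marker lists in each BAT (left) and sWAT (right) replicate, with the replicate number at each point. B cell, T cell and proliferating cell markers lie lower in BAT, and skeletal muscle and brown adipocyte markers higher, with no overlap between the tissues in any of the 5.

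Other marker lists differed less evenly. Of 6 macrophage markers 1 was higher, the scavenger receptor Cd163 at 2.11 ± 0.42, and 4 were lower. In replicate 4 the difference in Cd163 was 0.39, with BAT replicate 4 at -0.11 inside the sWAT range of -0.49 to 0.05. Of 7 fibroblast and preadipocyte markers 4 were lower in BAT, among them Dpp4 at -2.30 ± 0.21. Of 6 endothelial and 5 pericyte and smooth muscle markers, 1 of each was higher. Of 5 general adipocyte markers 1 was higher and 1 lower, and Adipoq, which encodes adiponectin, was at 0.21 ± 0.12 with no call.

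The genes outside these 9 whose 8 replicate values ran closest to each gene changed by 2-fold or more were found by the root mean square difference of the values, each gene being set to its own mean. For Ccnd2 they were Cerk, a ceramide kinase (0.19), Csf2rb2, a receptor subunit of interleukin 3 (0.21), and Sh3bgrl3 (0.21). For Ccnd3 they were Rcc2 (0.13), Nt5c (0.14) and Vps16 (0.15). For Cdkn1a they were Nat8l, the enzyme that makes N-acetylaspartate (0.16), Ciapin1 (0.18) and Pfkl, the phosphofructokinase of liver type (0.19). These genes were picked out of 18194 for their likeness over 4 replicates per tissue, and the likeness is a description.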

How the data were processed

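Total RNA of BAT and sWAT was hybridized to 16 Affymetrix mouse arrays, 8 per tissue. The deposited log2 values were made by the authors with RMA and quantile normalization and were then centred on each probe set's median, which is 0 in the file. Signal levels are therefore unknown, and precision rests on the number of arrays. By the platform annotation 34958 probe sets name 1 gene, 932 several and 9211 none. Gene values are means over probe sets naming 1 gene, for 18194 genes.

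After averaging the 2 arrays per replicate, BAT minus sWAT was fitted by lmFit and eBayes (limma 3.58.1, R 4.3.3), with replicate number as a block, for 45101 probe sets and for genes, and p-values were adjusted over each table (Benjamini-Hochberg). The block follows the paired test that the methods name. The labels do not state that equal numbers are 1 mouse, and deviations from the tissue means correlated at -0.15, 0.08, -0.34 and 0.26 between same-numbered samples. Same-numbered tissues 1 to 3 differed in Xist, which tissues of 1 mouse would share, and the block was kept. Differences between genes were compared by exact permutation tests (scipy 1.17.1). Python 3.11.15 with matplotlib 3.10.9 drew the figures.

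The 9 genes and all lists were chosen with earlier results of these data known. Named are the 9 genes with all their probe sets, from each list the 2 genes with the largest and the 1 with the smallest absolute difference, genes named for their place in the pathway and the 3 genes most like each gene changed by 2-fold or more. From lists of other cell types only some of these are given. Of the listed genes, 9 had no probe set with that symbol alone and were not analysed here. Alternatives dropped the block, took only the first or only the second arrays, or counted each array as a replicate. Others left out the 2 arrays of low 5' signal (5' more than 2 log2 units below 3') or each replicate. Further ones used a paired t-test like that in the methods, other scalings and other gene summaries. Scaling to 3' reference probe sets and replicate 4 alone were added after seeing the data.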

Additional observations from a re-analysis of the deposited data

Results flagged for a closer look

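Of 52 groups of 4 replicates examined, a gene or probe set of the D cyclins and CDK inhibitors in 1 tissue, 1 held a replicate far from the others. On the Ccnd3 probe set 1438805_at, sWAT replicate 3 was at 1.09, against 2.38, 2.42 and 2.60 in the other sWAT replicates, so that its distance to the nearest was 0.86 of the whole range. Its 2 arrays read 0.30, on the array of low 5' signal, and 1.88. Chance alone marks about 1 in 20 such groups.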

How the results depend on the processing

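Over all genes and probe sets, 6989 and 14605 passed the test, and 5 of the 9 genes with 14 of their 21 probe sets. With each array as a replicate, which counts repeat arrays as independent, 11357 genes and 24891 probe sets passed. A paired t-test like that in the methods was run on means of the 2 arrays, with no sharing of the spread between genes. It is not a rerun of the study's own test. It passed 3567 genes, 5116 probe sets, 0 of the 9 genes and 2 of the 21 probe sets (both of Ccnd2). At an unadjusted p under 0.05 it passed 5 of the 9, a limit at which the share of all genes was not counted. The adjusted p of the 5 genes by it was 0.064 to 0.11. Scaled to Gapdh (1.27 ± 0.47 with no call) and Actb (lower in BAT), which gave every gene an SE of 0.59, the counts were 974, 2252, 1 (Ccnd2) and 7, and scaled to their 3' probe sets they were 3771, 8927, 3 and 11. Leaving out each replicate in turn gave 4627 to 6766 genes, 9764 to 14069 probe sets, 5 of the 9 genes each time and 9 to 14 of the 21 probe sets, with the low values of 4627 and 9 without replicate 2. Cdkn2c lost its call without replicate 1 (adjusted p = 0.056, limma) and Ccnd1 gained one (0.041). Ccnd1 also passed with each array centred on its median (-0.45, adjusted p = 0.030, limma) and with each array as a replicate (0.0033). With arrays centred, 6 of the 9 genes passed, against 36.1% of all genes. Without the replicate block 47.1% of all genes (38.4% with it) and 6 of the 9 passed, Cdkn1b being added (adjusted p = 0.041).

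Ccnd2, Ccnd3, Cdkn1a, Cdkn1c and Cdkn2c kept their direction under every alternative run, and the cause of lost calls was not tested. Ccnd3 lost its call on the first arrays alone (-0.96, adjusted p = 0.075). In these genes and probe sets the sign turned for Cdkn2a without replicate 1 (range -0.010 to 0.30) and in replicate 4 (-0.0063), for Ccnd3 1444323_at (range without each replicate -0.085 to 0.13, and -0.033 with arrays centred), for Ccnd3 1415907_at on the first arrays (0.30) and for Cdkn1b 1419497_at on the second (-0.29).

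Other listed genes also turned, and the cause was not tested. On the first arrays alone Cdk2ap2 was at 0.32, Cdk4 at 0.18 (-0.45 with all arrays), Cdkn2d at 0.016 (-0.95 with all arrays) and Mycn at -0.040. On the second alone Aen was at -0.031, Ccna1 at 0.090, Cdk7 at -0.085, Fbxo4 at -0.029, Plagl1 at 0.16 and Tgfb2 at 0.12. Scaled to Gapdh and Actb, Plagl1 was at 0.0056 and Tgfb2 at 0.0035, and by their 3' probe sets at 0.024 and 0.021. With arrays centred Cdk7 was at -0.054, Fbxo4 at -0.024 and Mycn at -0.054. The median of probe sets put Plagl1 at 0.017, and plain probe sets put Cdk7 at -0.050 and Mycn at -0.087. Leaving out a replicate ranged from -0.50 to 0.022 for Cdk2ap2, -0.95 to 0.094 for Cdk4, -0.62 to 0.40 for Lum, -0.11 to 0.066 for Mycn, -0.092 to 0.098 for Plagl1, -0.17 to 0.11 for Tgfb2, -0.15 to 0.020 for Ccna1, -0.11 to 0.14 for Cdk7, -0.10 to 0.0016 for E2f1 and -0.056 to 0.11 for Fbxo4.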
